A study of Mus musculus with 7 samples.

Results

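The activin system was examined through 10 genes in mouse liver RNA-seq data. They were the inhibin and activin subunit genes Inha, Inhba, Inhbb, Inhbc and Inhbe, the follistatin genes Fst and Fstl3, and the activin receptor genes Acvr1b, Acvr2a and Acvr2b. The genes were taken by name, and all 10 were found by symbol among the 23594 genes of the table. RNA was measured in livers of 4 TgLC mice and 3 TgL mice, which addresses how raised leukemia inhibitory factor (LIF), a cytokine of the interleukin-6 family, alters gene expression in the liver. Both genotypes carry mouse Lif at the Rosa26 locus behind the CAG promoter and a STOP cassette that blocks transcription, with eGFP. TgLC mice also carry R26-CreERT2, a tamoxifen (TAM)-dependent recombinase that removes the cassette. TgL mice lack Cre and served as controls. The study reports that TgLC mice ate less after TAM. Raised LIF, active Cre and lower food intake therefore cannot be told apart in this comparison. Both groups received TAM intraperitoneally, and the study's methods give mice of 8 weeks and doses of 32 µg/g for females and 64 µg/g for males. The sex of each mouse and the day of liver collection after TAM were not given in the sources used here. Rosa26 and CAG are active in most cell types, so the transgene was not restricted to the liver. Each library is one liver with all of its cell types, so in these data fewer cells of a type and less RNA per cell cannot be told apart.

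Activins are dimers of beta subunits and belong to the TGF-beta family. Inhba encodes the subunit of activin A, Inhbb that of activin B, Inhbc that of activin C and Inhbe that of activin E. Inha encodes the alpha subunit, which pairs with a beta subunit to form inhibin, an antagonist of activin. An activin dimer binds a type II receptor, encoded by Acvr2a or Acvr2b, which recruits and phosphorylates a type I receptor such as ALK4, the product of Acvr1b. SMAD2 and SMAD3 then carry the signal to the nucleus. Follistatin, encoded by Fst, and follistatin-like 3, encoded by Fstl3, bind activin outside the cell and keep it from its receptors. In mice and humans Inhbc and Inhbe are expressed mainly in hepatocytes, the liver is a source of circulating follistatin, and activin A in excess is known to cause muscle wasting in mice.

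Lif itself, the gene that checks the labels, had 10.0005, 12.28, 10.12 and 25.04 normalized counts in TgLC livers 1 to 4 and 0.894, 1.99 and 0 in TgL livers 1 to 3. A normalized count is the number of reads of a gene divided by a scaling factor for the library. The Lif ranges did not overlap, at an exact two-sided permutation p of 0.0571, which is the smallest that 4 livers against 3 can give. The libraries held 11325974 to 12448961 reads over genes in TgLC livers and 9367681 to 11030699 in TgL livers. TgLC livers 3 and 4 had sample titles of a different form from the rest and fewer genes above 0 (18169 and 18604) than the 19795 to 20215 of the other livers. TgL liver 3 also stood outside the number series of TgLC livers 1 and 2 and TgL livers 1 and 2, and its summed Y-linked genes reached 22.4 normalized counts, against 0 to 2.05 in TgLC livers and 0.894 and 0.995 in the other TgL livers. Xist, which is expressed from the inactive X chromosome, was at 3521 to 7618 normalized counts in TgLC livers and 7445 to 9246 in TgL livers, and TgL liver 3 was the highest. Whether these titles mark batches was not given. The livers had the markers of their tissue, with 971293 to 1155340 normalized counts summed over 10 hepatocyte genes in TgLC livers and 1326200 to 1381720 in TgL livers. Alb, the albumin gene, made up most of each sum. Of the 10 genes, 3 were higher, 4 were lower and 3 did not pass the limma test defined below. Of all genes tested, 16.2% were higher and 15.0% were lower. Over 9 exocrine pancreas genes the sums were 39.0 to 53.6 in TgLC livers and 640 to 1015 in TgL livers, and 6 of these genes were at 0 in every TgLC liver and none in every TgL liver. The part of pancreatic RNA in the results below was not tested.

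The 250 bases upstream of the start of 4 ligand and receptor genes are shown because 3 of these genes rose in TgLC livers and Inhbe lies beside Inhbc. They come from RefSeq on GRCm38.p6 and are written 5′ to 3′ on the strand of the gene, in lower case. Capitals mark the only match to any motif searched among the 9 members with an entry (Fst had none).
Inhbb (chr1:119422249-119422498, minus strand): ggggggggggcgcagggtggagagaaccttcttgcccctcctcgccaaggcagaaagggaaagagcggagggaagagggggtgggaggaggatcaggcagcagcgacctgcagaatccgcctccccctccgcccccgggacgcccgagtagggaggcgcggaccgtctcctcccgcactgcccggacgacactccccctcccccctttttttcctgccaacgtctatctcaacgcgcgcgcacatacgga
Inhbe (chr10:127351849-127352098, minus strand): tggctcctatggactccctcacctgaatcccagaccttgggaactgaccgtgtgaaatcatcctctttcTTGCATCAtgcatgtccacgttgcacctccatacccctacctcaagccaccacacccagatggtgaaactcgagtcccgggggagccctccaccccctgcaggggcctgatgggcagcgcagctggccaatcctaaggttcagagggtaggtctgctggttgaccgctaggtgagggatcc
Inhbc (chr10:127370549-127370798, minus strand): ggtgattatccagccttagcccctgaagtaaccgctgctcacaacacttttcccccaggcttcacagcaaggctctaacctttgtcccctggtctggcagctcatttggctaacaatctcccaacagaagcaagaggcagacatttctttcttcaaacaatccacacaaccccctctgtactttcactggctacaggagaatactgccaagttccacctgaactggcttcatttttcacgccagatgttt
Acvr1b (chr15:101173822-101174071, plus strand): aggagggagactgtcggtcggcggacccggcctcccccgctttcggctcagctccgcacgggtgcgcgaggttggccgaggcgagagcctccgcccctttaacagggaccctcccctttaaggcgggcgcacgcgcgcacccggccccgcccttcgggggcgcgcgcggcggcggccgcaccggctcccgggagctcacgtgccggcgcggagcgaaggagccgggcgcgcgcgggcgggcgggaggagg

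Windows of 300 bases, 250 before and 50 after the start, were searched on both strands for a STAT site (TTCNNNGAA), an ATF4 site (TGATGNAA) and a SMAD site (GTCTAGAC). STAT factors carry the LIF signal, ATF4 is a factor of the integrated stress response, and SMAD proteins carry the activin signal. The single match was the ATF4 letters in Inhbe, TTGCATCA as read on the gene's strand, whose first base lies 181 bases before the start. Among 32851 RefSeq windows, 8.30% held the STAT letters, 3.97% the ATF4 letters and 0.213% the SMAD letters. The upstream regions differed in composition. The Inhbb window held 23 CpG dinucleotides at 64.3% GC and the Acvr1b window 51 at 79.7% GC, against 4 at 49.7% GC in Inhbc and 6 at 57.3% GC in Inhbe. The median over all windows was 7 CpG dinucleotides and 52.7% GC.

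In TgLC livers 4 of the 10 genes rose relative to TgL livers: Inhbb by 12.8-fold, Fst by 7.30-fold, Acvr1b by 2.63-fold and Inhbc by 1.60-fold, each as a ratio of group means. Inhba, Inhbe, Acvr2a and Acvr2b did not pass the test, and Inha and Fstl3 were too low to be tested. A gene is said to have risen or fallen when its adjusted p in limma, fitted to log2(normalized count + 1) over all 13145 genes with a mean of at least 10, was under 0.05. Thus 4 of the 8 members tested were higher and 0 were lower, while 16.2% of all genes tested were higher and 15.0% were lower (31.2% in either direction). Inhba was the 1 member with a lower value at an unadjusted limma p under 0.05 (0.0402), and its adjusted p was 0.0954 with edgeR and 0.0575 with DESeq2 on the recovered reads. The same 4 genes were those whose TgLC livers all lay above every TgL liver, which held for 21.1% of all genes tested, and no member lay below throughout, which held for 19.9% (41.1% in either direction). Inhbb, Fst and Acvr1b also changed at least 2-fold and so counted as differentially expressed genes (DEGs), against 14.2% of all genes tested in either direction (7.53% higher and 6.65% lower). The median log2 fold change of the 8 members was 0.58, against 0.0018 over all genes tested. The members were chosen with earlier results of these data known, so these contrasts with all genes are only a description.

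**Figure D1:**
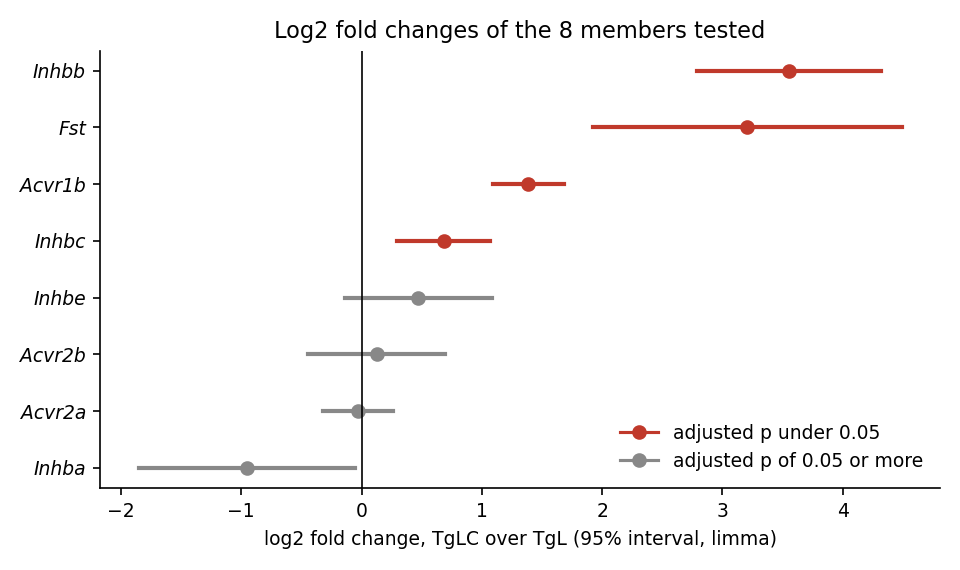
Log2 fold change of each tested member, TgLC over TgL, on the log2(normalized count + 1) scale with its 95% interval from limma (n = 4 and 3 livers). The intervals of Inhbb, Fst, Acvr1b and Inhbc lie above 0, that of Inhba spans -1.85 to -0.053 with an adjusted p of 0.100, and those of Inhbe, Acvr2b and Acvr2a cross 0.

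Among the ligand subunits the largest change was in Inhbb. It had 189, 307, 249.9 and 537 normalized counts in TgLC livers 1 to 4, against 18.8, 22.9 and 33.6 in TgL livers 1 to 3. The lowest TgLC liver thus exceeded the highest TgL liver, and TgLC liver 4, which was also highest in Lif, was the highest of all. Means were 321 ± 152 in TgLC livers and 25.1 ± 7.68 in TgL livers (SD, n = 4 and 3), a log2 fold change of 3.55 (SE 0.34, 95% interval 2.79 to 4.32, limma adjusted p = 1.11e-04). Among TgLC livers 1 and 2 and TgL livers 1 and 2 alone, the 4 livers of one number series, the log2 fold change was 3.48 (limma adjusted p = 1.65e-04). Without TgLC livers 3 and 4 it was 3.25 (limma adjusted p = 3.34e-04).

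Inhbc, the hepatocyte gene for activin C, had 596, 655, 884 and 723 normalized counts in TgLC livers, against 492, 489.7 and 355 in TgL livers. The groups did not overlap, although the gap between TgLC liver 1 and TgL liver 1 was smaller than the range within either group. Means were 715 ± 124 in TgLC livers and 445 ± 78.5 in TgL livers, a log2 fold change of 0.68 (SE 0.17, limma adjusted p = 0.0163). The call was lost without TgL liver 3, the lowest one (0.53, limma adjusted p = 0.0597) and in edgeR scaled by library totals (0.36, adjusted p = 0.0936). Within the one number series the log2 fold change was 0.35 (limma adjusted p = 0.0280), and without TgLC livers 3 and 4 it was 0.50 (limma adjusted p = 0.0474).

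Inhbe, which encodes the activin E subunit and is known in human hepatoma cells as a stress-responsive gene, had 411, 494, 516 and 544 normalized counts in TgLC livers, against 546, 371 and 216 in TgL livers. The groups overlapped, and TgL liver 1 was the highest of the 7. Means were 491 ± 57.3 in TgLC livers and 378 ± 165 in TgL livers, a log2 fold change of 0.47 (SE 0.27, 95% interval -0.14 to 1.08, limma adjusted p = 0.218). Without TgL liver 1 it was 0.78 (limma adjusted p = 0.0473), and in the one number series it was 0.0013.

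Inhbe and Inhbc are neighbours on chromosome 10, on the same strand and 1910 bases apart in GENCODE M21. Their ratio within a liver, Inhbe over Inhbc in normalized counts, was 0.690, 0.755, 0.584 and 0.752 in TgLC livers and 1.11, 0.758 and 0.609 in TgL livers. The TgLC ratios lay mostly inside the TgL range. The mean log2 ratio differed by -0.21 (exact two-sided permutation p = 0.400, n = 4 and 3), and by 0.025 without TgL liver 1.

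Inhba, which encodes the activin A subunit, had 71.0, 130.0, 182 and 75.1 normalized counts in TgLC livers, against 138, 178 and 358 in TgL livers. TgLC liver 3 exceeded 2 of the TgL livers, and TgL liver 3 was the highest of all. Means were 115 ± 52.5 in TgLC livers and 225 ± 117 in TgL livers, a log2 fold change of -0.95 (SE 0.40, 95% interval -1.85 to -0.053, limma adjusted p = 0.100). Without TgLC liver 3 the log2 fold change was -1.21, and the limma adjusted p was 0.0382. In edgeR scaled by library totals it was -1.30 (adjusted p = 0.0279).

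Inha was near the limit of detection, with 1, 2, 0 and 3 reads in TgLC livers, against 3, 1 and 2 in TgL livers. These are counts at or under 3 reads, and a difference was not detectable at this depth. The alpha subunit transcript was therefore scarce beside those of the beta subunits in both groups.

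**Figure D2:**
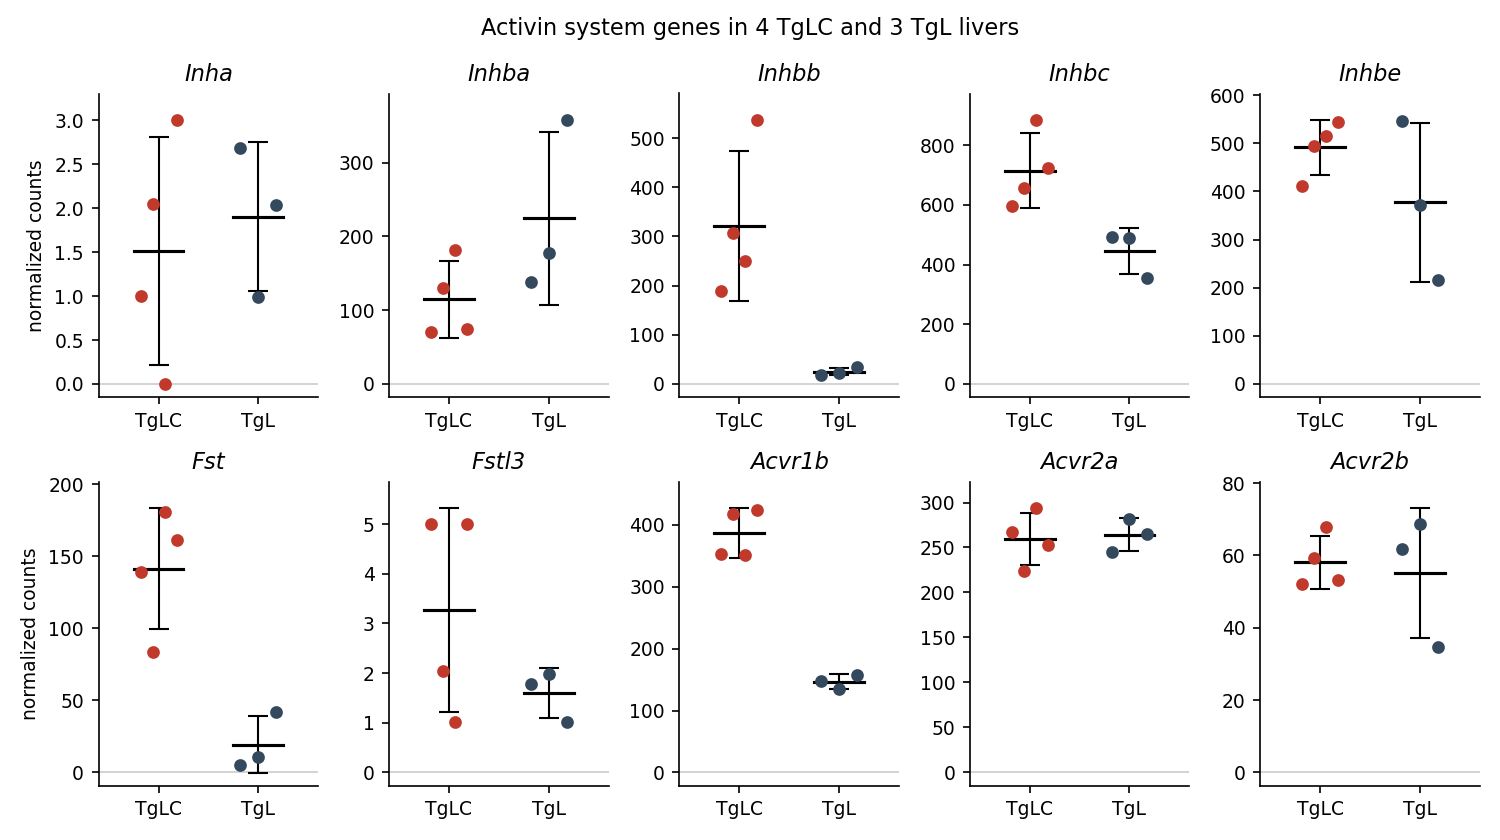
Normalized counts of the 10 genes in each liver, TgLC left of TgL (n = 4 and 3), with the mean as a wide line and the SD as error bars, each panel on its own linear scale. The TgLC livers lie above all TgL livers in the panels of Inhbb, Inhbc, Fst and Acvr1b, and the groups overlap in the other panels.

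To compare the subunits with each other, normalized counts were divided by exon length in kilobases (GENCODE M21) and expressed as a share of the summed level of the 4 beta subunit genes. Exon length is the union of all annotated exons of a gene. It was 1859 bases for Inhbc, 5319 for Inhbe, 4255 for Inhbb and 6390 for Inhba, and the shares depend on these lengths. Inhbc made up 67.5% ± 4.74 of this sum in TgLC livers and 67.9% ± 3.68 in TgL livers (SD, n = 4 and 3). Inhbb made up 9.80%, 13.4%, 8.90% and 20.1% in TgLC livers, against 1.12%, 1.47% and 2.68% in TgL livers. Inhba showed the opposite order in every liver, with 2.45%, 3.78%, 4.32% and 1.87% in TgLC livers, against 5.48%, 7.61% and 19.0% in TgL livers. Inhbe made up 16.3% ± 1.17 in TgLC livers and 19.6% ± 6.20 in TgL livers. In every TgLC liver Inhbb thus had a larger share than Inhba, and in every TgL liver a smaller one. These shares sum to the whole within a liver and so are not independent of one another.

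**Figure D3:**
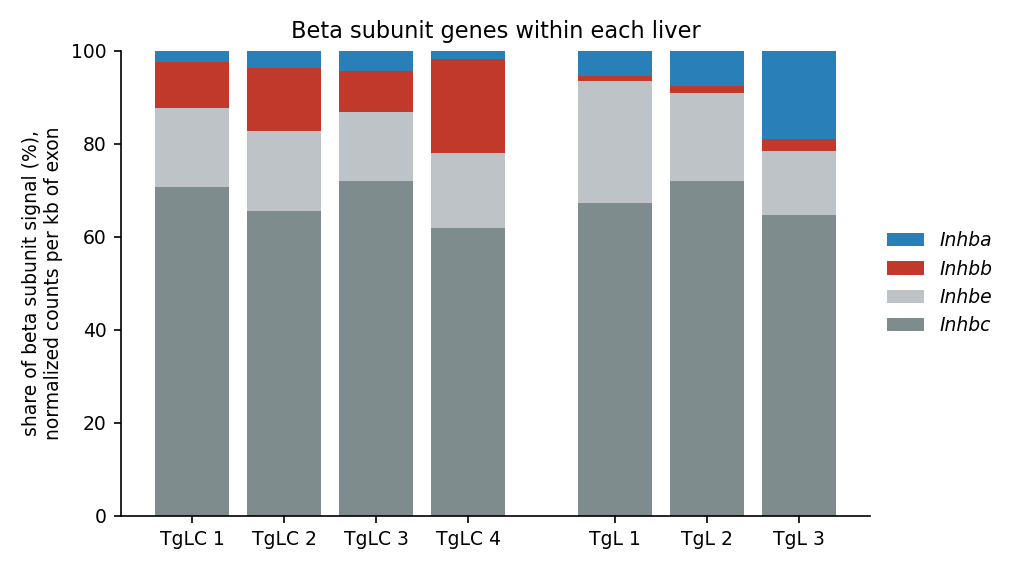
Share of each beta subunit gene in the summed per-kilobase level of Inhba, Inhbb, Inhbc and Inhbe, in percent, as one stacked bar per liver with TgLC livers left of TgL livers. Inhbc fills most of every bar, and the Inhbb part is 8.90% to 20.1% in TgLC livers against 1.12% to 2.68% in TgL livers.

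Fst, the activin-binding antagonist, had 139, 83.9, 181 and 161 normalized counts in TgLC livers, against 5.37, 10.9 and 41.8 in TgL livers. All TgLC livers were above all TgL livers, and within TgL livers liver 3 was the highest. Means were 141 ± 42.0 in TgLC livers and 19.4 ± 19.6 in TgL livers, a log2 fold change of 3.21 (SE 0.57, 95% interval 1.93 to 4.49, limma adjusted p = 0.00301). Without TgL liver 3 the TgL mean was 8.16 and the ratio of means was 17.3 in place of 7.30. The log2 fold change was 3.64 within the one number series (limma adjusted p = 7.23e-04) and 2.88 without TgLC livers 3 and 4 (limma adjusted p = 0.0215). Fstl3, the second antagonist, had 5, 2, 1 and 5 reads in TgLC livers, against 2, 2 and 1 in TgL livers. It was too low to be tested. It shares 1157 exon bases with Prss57 on the opposite strand (GENCODE M21), and without strand the reads of overlapping genes cannot be told apart.

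Among the receptors the type I gene changed and the type II genes did not pass the test. Acvr1b had 353, 418, 351 and 425 normalized counts in TgLC livers, against 148, 134 and 158 in TgL livers. Both groups were tight and far apart. Means were 387 ± 40.0 in TgLC livers and 147 ± 11.9 in TgL livers, a log2 fold change of 1.39 (SE 0.13, 95% interval 1.09 to 1.68, limma adjusted p = 9.88e-05). The log2 fold change was 1.44 within the one number series and 1.38 without TgLC livers 3 and 4, both past the threshold.

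Acvr2a had more normalized counts than Acvr2b in every liver. It had 267, 224, 293 and 252 normalized counts in TgLC livers, against 245, 282 and 265 in TgL livers. The groups overlapped, with a log2 fold change of -0.030 (SE 0.13, 95% interval -0.32 to 0.26, limma adjusted p = 0.881). In edgeR scaled by library totals it was -0.34 (adjusted p = 0.0447), where the median of all genes was -0.30. The gene shares 446 exon bases with Orc4 on the opposite strand, which averaged 124 normalized counts, and whether strand was used in counting was not given in the sources used here. Acvr2b had 52.0, 59.4, 67.8 and 53.1 normalized counts in TgLC livers, against 61.7, 68.7 and 34.7 in TgL livers. These groups overlapped as well, with a log2 fold change of 0.13 (SE 0.25, 95% interval -0.44 to 0.70, limma adjusted p = 0.731). The ratio of Acvr2a to Acvr2b within a liver was 5.13, 3.78, 4.33 and 4.75 in TgLC livers and 3.97, 4.10 and 7.65 in TgL livers, a difference in mean log2 ratio of -0.16 (exact two-sided permutation p = 0.743, n = 4 and 3).

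The order of the 10 genes by mean normalized counts per kilobase differed between the groups at several places. This order also depends on the exon lengths used. In TgLC livers it was Inhbc (384.5), Inhbe (92.4), Acvr1b (87.5), Inhbb (75.4), Acvr2a (45.6), Fst (30.8), Inhba (17.9), Acvr2b (14.8), Fstl3 (1.34) and Inha (1.03). In TgL livers it was Inhbc (239.6), Inhbe (71.0), Acvr2a (46.4), Inhba (35.2), Acvr1b (33.3), Acvr2b (14.0), Inhbb (5.90), Fst (4.22), Inha (1.29) and Fstl3 (0.654). Within TgLC livers the ranges of neighbours in this order did not overlap only between Inhbc and Inhbe and between Acvr2b and Fstl3. Within TgL livers they did not overlap only between Inhbc and Inhbe, Acvr1b and Acvr2b, and Acvr2b and Inhbb. All other neighbours had overlapping ranges.

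Activin subunits, follistatin and the receptors are also made by non-parenchymal cells, so marker genes of other cell types are given beside these results. The counts called stand against 16.2% higher and 15.0% lower among all genes tested. Over 10 stellate cell and fibroblast genes the summed normalized counts were 4349 to 11867 in TgLC livers and 4417 to 4949 in TgL livers, with 4 of 10 higher and 1 lower. Over 8 sinusoidal endothelial genes they were 3946 to 6110 in TgLC livers and 5100 to 5209 in TgL livers, with 2 of 8 higher and 1 lower. Over 8 Kupffer cell and macrophage genes they were 4061 to 6968 in TgLC livers and 4852 to 6423 in TgL livers, with 1 of 8 higher. These 3 sums overlapped between the groups. For stellate cells and fibroblasts, the sums of TgLC livers 1, 2 and 4 (11867, 8761 and 5402) exceeded those of every TgL liver. TgLC liver 3 (4349) lay below every TgL liver. Over 6 cholangiocyte genes the sums were 629 to 1891 in TgLC livers and 368 to 489 in TgL livers, where only Sox9 was higher among the 4 tested. Over 8 neutrophil genes they were 94.2 to 210 in TgLC livers and 31.9 to 98.9 in TgL livers, with 3 of the 4 tested higher. The 6 lymphocyte genes, with sums of 6.01 to 45.04 in TgLC livers and 26.9 to 53.0 in TgL livers, were all too low to be tested. No marker of these 6 other cell types was at 0 in all livers of a group, and the part of these cells in the results was not tested.

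The wider activin, TGF-beta and BMP pathway was described with 70 further genes in 8 roles, of which 67 had a value and 54 were tested. Of the 54, 13 were higher and 8 were lower in TgLC livers (24.1% and 14.8%, against 16.2% and 15.0% of all genes tested), and their median log2 fold change was 0.23. In edgeR scaled by library totals the split turned to 9 higher and 11 lower. Of all genes tested, 8.95% were higher and 32.5% were lower in that setting. With any 1 liver left out, 3 to 5 of the 54 were lower, while 9.24% to 15.5% of all genes tested were lower. In what follows a value with no other name is a log2 fold change from limma with its adjusted p.

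Among 10 other ligands, 4 fell and 1 rose. Bmp6, which in mouse liver is made by endothelial cells and induces hepcidin, fell by 2.04 (adjusted p = 0.00109), with 15.0, 15.4, 24.3 and 10.02 normalized counts in TgLC livers against 59.9, 73.7 and 66.3 in TgL livers. Bmp2, a second endothelial inducer of hepcidin in mouse, fell by 1.54 (adjusted p = 0.0317), a call lost without TgLC liver 2 (-1.50, adjusted p = 0.0622) or any 1 TgL liver (-1.67 to -1.46, adjusted p = 0.0684 to 0.0990). Bmp4 and Bmp10 also fell. Gdf15, a stress-induced ligand known in mice to reduce food intake, rose by 3.86 (adjusted p = 0.00124), with 378, 562, 897 and 492 normalized counts in TgLC livers against 109, 31.9 and 14.3 in TgL livers. Its ratio of means was 11.3, and 25.2 without TgL liver 1.

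Among 6 other receptors, only Tgfbr2, the type II receptor for TGF-beta, was called (1.18, adjusted p = 0.00218). Among 9 coreceptors and antagonists, 4 rose and 1 fell. Bmper, a secreted BMP-binding protein, rose by 4.81 (adjusted p = 2.63e-06) and had 795, 609, 479 and 738 normalized counts in TgLC livers against 20.6, 17.9 and 28.5 in TgL livers. That ratio of means, 29.3, exceeded the one of Inhbb. Tgfbr3, the coreceptor betaglycan, which binds TGF-beta and inhibin, rose by 0.87 (adjusted p = 0.00768). Bambi, a pseudoreceptor, and Chrd, a BMP antagonist, also rose.

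Among 10 SMAD transducers and cofactors, 3 fell and 1 rose. Smad9, a transducer of BMP signals, fell by 2.42 (adjusted p = 0.00517), and Smad1, of the same branch, rose by 0.83 (adjusted p = 0.0152). Smad3, a transducer of activin and TGF-beta signals, fell by 0.50 (adjusted p = 0.0301), with 108, 110, 101 and 116 normalized counts in TgLC livers against 132, 153 and 180 in TgL livers. Smad2, its partner, fell as well. Smad3 lost its call without TgLC liver 1, 2 or 3 or TgL liver 2 or 3 (-0.51 to -0.39, adjusted p = 0.0520 to 0.110).

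Among 6 SMAD inhibitors, Skil, which encodes the corepressor SnoN, rose by 1.06 (adjusted p = 0.00365), and Smad6, an inhibitor of BMP signals, rose by 0.61 (adjusted p = 0.0209), a call lost without TgL liver 1 (0.56, adjusted p = 0.0852) or TgL liver 3 (0.57, adjusted p = 0.0675). Smad7, another inhibitory SMAD, had 0.35 (adjusted p = 0.401). The proprotein convertases cut TGF-beta family precursors into their mature form. Of 4 tested, Pcsk5 rose by 1.17 (adjusted p = 7.77e-04) and Pcsk6 by 0.99 (adjusted p = 0.0189), the last a call lost without TgL liver 2 (1.03, adjusted p = 0.0538) or TgL liver 3 (0.88, adjusted p = 0.0709).

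Among 4 targets of activin and TGF-beta, 2 rose. Cdkn1a, which encodes the cell cycle inhibitor p21, rose by 3.90 (adjusted p = 2.01e-04), a ratio of means of 12.5, and of 24.1 without TgL liver 3. It also responds to other signals. Of the 5 targets of BMP, Id1, Id2, Id3, Hamp (the hepcidin gene) and Atoh8, none was called by limma. In the fit to all 7 livers none had an unadjusted limma p under 0.05. With 1 liver left out, Hamp without TgLC liver 3 (-0.72) and Id3 without TgL liver 1 (0.56) fell under that value, but neither was called. The 1 call by another tool was Hamp in edgeR scaled by library totals (-0.81, adjusted p = 0.0430). The median log2 fold change of the 5 targets over all 7 livers was -0.060.

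**Figure D4:**
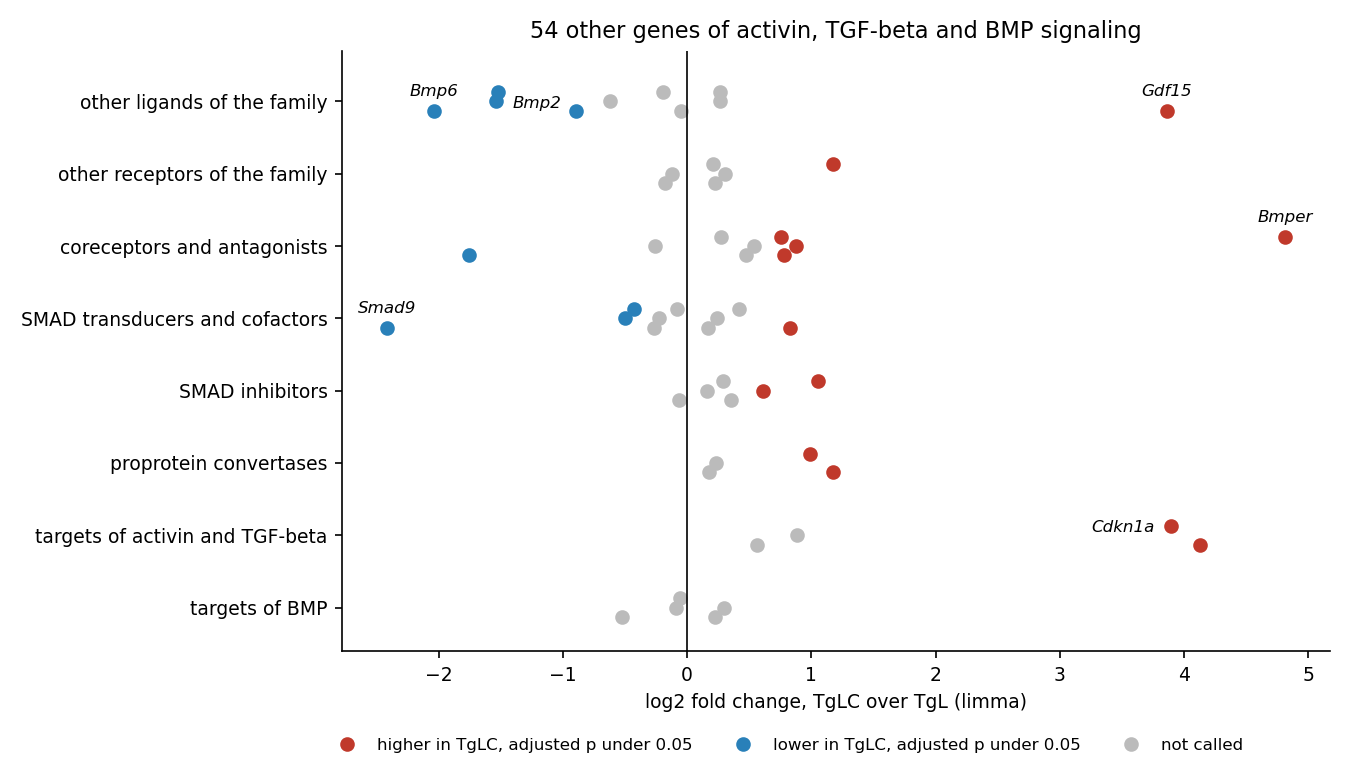
Log2 fold change, TgLC over TgL, of the 54 tested genes of the wider pathway by role (limma, n = 4 and 3 livers). Red points passed the test as higher (13 genes), blue points as lower (8 genes), and grey points did not pass it (33 genes).

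For each of the 4 genes that rose, the genes whose log2 values followed it most closely over the 7 livers were listed as a description. The livers share their group difference, and with 7 points many genes reach a high r. Acvr1b was followed by Cxcl14 (Pearson r = 0.999), Kng1 (0.997) and Golim4 (0.996), and Inhbb by Rcn2, Rpl39 and Itm2c (0.994 each). Fst was followed by Etv6 (0.991), Golph3l (0.983) and Dctn5 (0.982), and Inhbc by Trp53rka (0.997), Tm4sf4 (0.994) and Acaa1a (0.992). Trp53rka, Tm4sf4 and Acaa1a were each lowest in TgL liver 3 and highest in TgLC liver 3, as Inhbc was.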

How the data were processed

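Poly-A RNA-seq was performed on 7 mouse livers. The authors trimmed reads with fastp, aligned them with HISAT2 (2.0.5), counted them per gene with featureCounts (1.5.0-p3) and scaled them with DESeq2 (1.20.0), per the submitters' processing notes. The deposited values are a signal, reads per gene divided by one size factor per liver, and every value was a whole multiple (within 1e-06) of the worth of 1 read, so reads were recovered from these normalized counts. Genome build, annotation and strand setting were not given in the sources used here. Symbols matched 22679 of 23594 IDs.

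Log2(normalized count + 1) was fitted with limma (3.58.1, R 4.3.3) with an intensity trend over genes with a mean of at least 10, with Benjamini-Hochberg adjustment over all 13145 genes. DEGs had an adjusted p under 0.05 and at least 2-fold change. Ratios were compared by exact permutation (scipy 1.17.1). Alternatives were edgeR (4.0.16) and DESeq2 (1.42.0) on recovered reads, limma-voom, other pseudocounts and filters, one title series and each liver left out. Replicate livers differed by more than sampling noise (chi-square per degree of freedom 9.03 to 47.4). No label says how the mice were related, so p-values measure only the spread between these livers.

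The members and lists were chosen with earlier results of these data known. The text names all 10 members, up to 2 genes per direction with the smallest adjusted p in each of the 8 roles of the wider list, and the 3 most correlated genes per called member (Pearson r of log2 values, leaving out predicted and unnamed genes). The other genes it names, which are the remaining called genes, Smad7 and the BMP targets, were chosen after their values were seen. Some genes that the rule takes from the wider list are counted but not reported here by name.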

Additional observations from a re-analysis of the deposited data

Results flagged for a closer look

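Lif in TgLC liver 4, at 25.04 normalized counts, stood apart from the other TgLC livers, which had 10.0005 to 12.28. The gap to the nearest of them was 0.848 of the range of the group, above Dixon's 95% critical value for 4 samples. This was 1 of 29 groups of values examined in this way, and chance flags about 1 in 20. Inhbb (537) was also highest in this liver. Without it Lif averaged 10.8 ± 1.28 in TgLC livers, against 0.962 ± 0.997 in TgL livers (SD, n = 3 each, exact permutation p = 0.100, the smallest this size allows).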

How the results depend on the processing

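Inhbb, Fst and Acvr1b stayed higher under all 19 alternatives, with log2 fold changes of 3.25 to 3.78, 2.56 to 3.97 and 1.08 to 1.44. Between 3 and 5 members were higher. Over all genes tested, 8.76% to 18.8% were higher and 8.54% to 32.5% were lower in these alternatives. Scaling by library totals in edgeR moved the median of all genes to -0.30 and the calls over all genes to 1177 higher and 4275 lower, against 2127 and 1977. It made 2 members lower, Inhba (-1.30, adjusted p = 0.0279) and Acvr2a (-0.34, adjusted p = 0.0447), gave Inhbc 0.36 (adjusted p = 0.0936) and turned Acvr2b to -0.24. Leaving out 1 liver gave 0 to 1 members lower. Acvr2b was also negative in the one title series (-0.22) and without TgL liver 3 (-0.17), and with 1 liver left out it ranged up to 0.31. Acvr2a was positive without TgLC liver 2 (0.037) or TgL liver 2 (0.018), in a range of -0.092 to 0.037 with 1 liver left out. The Inhbe to Inhbc log2 ratio reversed to 0.025 without TgL liver 1 (-0.41 to 0.025 with 1 liver left out), and that of Acvr2a to Acvr2b to 0.13 in the one title series and 0.15 without TgL liver 3 (-0.33 to 0.15 with 1 liver left out). Of the wider list, 9 to 17 genes were higher, and 8 were lower, against 11 with library totals (with 9 higher), 5 with no filter, with a mean of at least 50, without TgLC livers 3 and 4 or without an intensity trend, 4 in the one title series and 3 to 5 with 1 liver left out. Of the 16 genes that the naming rule took from the wider list, none reversed, and Bmp2, Smad1, Smad3, Smad6 and Pcsk6 each lost the call in at least 1 alternative. The cause was not tested. No paired analysis was possible because the labels give no shared replicate numbers. Depth limits Inha and Fstl3, with at most 5 reads a liver.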
